A study of Mus musculus with 3 samples.

Results

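Imprinted genes are transcribed mainly from the maternal or mainly from the paternal copy, and 39 of them were followed here in mouse embryos at stage E8.75. Members were the non-control probes that carry the name of a listed gene, either in the authors' deposited table or through a RefSeq accession. No measured value entered this naming rule, but the list of genes was chosen with earlier results of these data known. By textbook parental origin, 16 are maternally expressed and 22 paternally expressed in mouse, some of them only in certain tissues, and Gnas was kept apart because its transcripts come from either copy. All 39 had a probe, 67 probes in all, and 37 genes with 62 probes passed the filter on dim probes, out of 22781 genes and other transcripts tested. The 2 that did not pass were the paternally expressed Rtl1 and Rasgrf1.

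Each of 3 Agilent arrays with 2 colours set RNA of Brpf1-deficient embryos (Cy5, red) against RNA of wild-type embryos (Cy3, green), which gives 3 pairs and 1 comparison. Brpf1 encodes a scaffold of histone acetyltransferase complexes. Allele, strain and sex are not given in the labels, nor is it stated if embryos were pooled for an RNA. The p-values therefore speak only of these 3 pairs. They combine the spread between the pairs with a variance drawn from all genes. All arrays shared 1 slide, 1 scan time and 1 dye orientation, so dye and genotype cannot be told apart.

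Each value below is the log2 ratio of Cy5 to Cy3, positive where the channel labelled Brpf1-deficient was brighter, and comes from the brightest probe of a gene unless another is named. Every SE given is the moderated SE of limma, the test used here, which draws the variance of a gene towards that of all genes. For a gene whose pairs differ widely it is smaller than the SE of the 3 pairs alone, and for a very even gene it is larger. The log2 ratio of Brpf1 itself was 2.01, 1.43 and 1.06 in pairs 1, 2 and 3, which goes against that label unless its probe lies outside the disrupted part, a point not analysed here. Directions below are therefore those of the channels as labelled. All 10 markers each of neural tissue, heart and embryonic mesoderm were above background in these embryo RNAs. Raw spot intensities, where given, are not balanced between the dyes (the array medians were 234 to 257 in Cy5 and 142.5 to 155.5 in Cy3), so only the ratio after normalization compares the channels.

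At imprinted loci, DNA methylation set in the egg or the sperm marks the parental copies, and after fertilization zinc finger proteins such as ZFP57 with the corepressor TRIM28 keep the marks. Neighbouring genes are often controlled together by such a region, with some read from the maternal and others from the paternal copy. Many imprinted genes act on growth: several paternally expressed ones, Igf2 among them, promote growth of embryo and placenta, and several maternally expressed ones restrain it.

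No imprinted gene passed the threshold in either direction. In limma (two-sided, Benjamini-Hochberg over all 22781 genes, threshold 0.05), 0 of 37 were called, where 1.38% of all genes were (314, of which 292, or 1.28% of all genes, were higher in Cy5). The smallest adjusted p among the 37 was 0.185. The share of 1.38% rests mostly on very bright probes, since 268 of the 314 calls came from 523 genes brighter than 17 (log2). Only 1 member, H19, is that bright. Ratios at this brightness were high in general, with medians of 0.87, 0.69 and 0.70 in pairs 1, 2 and 3. The share also depends on the scaling: 0 genes were called with a loess span of 0.02 or with processed signals. At an unadjusted p below 0.05 there were 2 members, both lower in Cy5 and both paternally expressed, which is 5.41% of the 37, against 17.2% of all genes in either direction and 9.01% lower in Cy5. The authors' deposited limma table lists 0 probes of any gene with an adjusted p below 0.05 (smallest 0.264), so its lack of member calls tells nothing about the members. The smallest adjusted p of a member probe there was 0.372. By any probe, 4 of its 35 members had an unadjusted p below 0.05. By the brightest listed probe 3 did, against 15.1% of all genes in that table.

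How large a difference these arrays leave room for varied by gene. The 95% interval of the mean lay within 0.5 of 0 on the log2 scale for 19 of 37 members (70.7% of all genes), and within 1 for 34 (96.5% of all genes). The other 3 were Grb10, Plagl1 and Kcnq1ot1. The mean was above 0 for 23 members, against 45.3% of all genes, and the sign was the same in all 3 pairs for 13, against 43.2% of all genes. The arrays number 3, which limits the precision of every value.

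**Figure D1:**
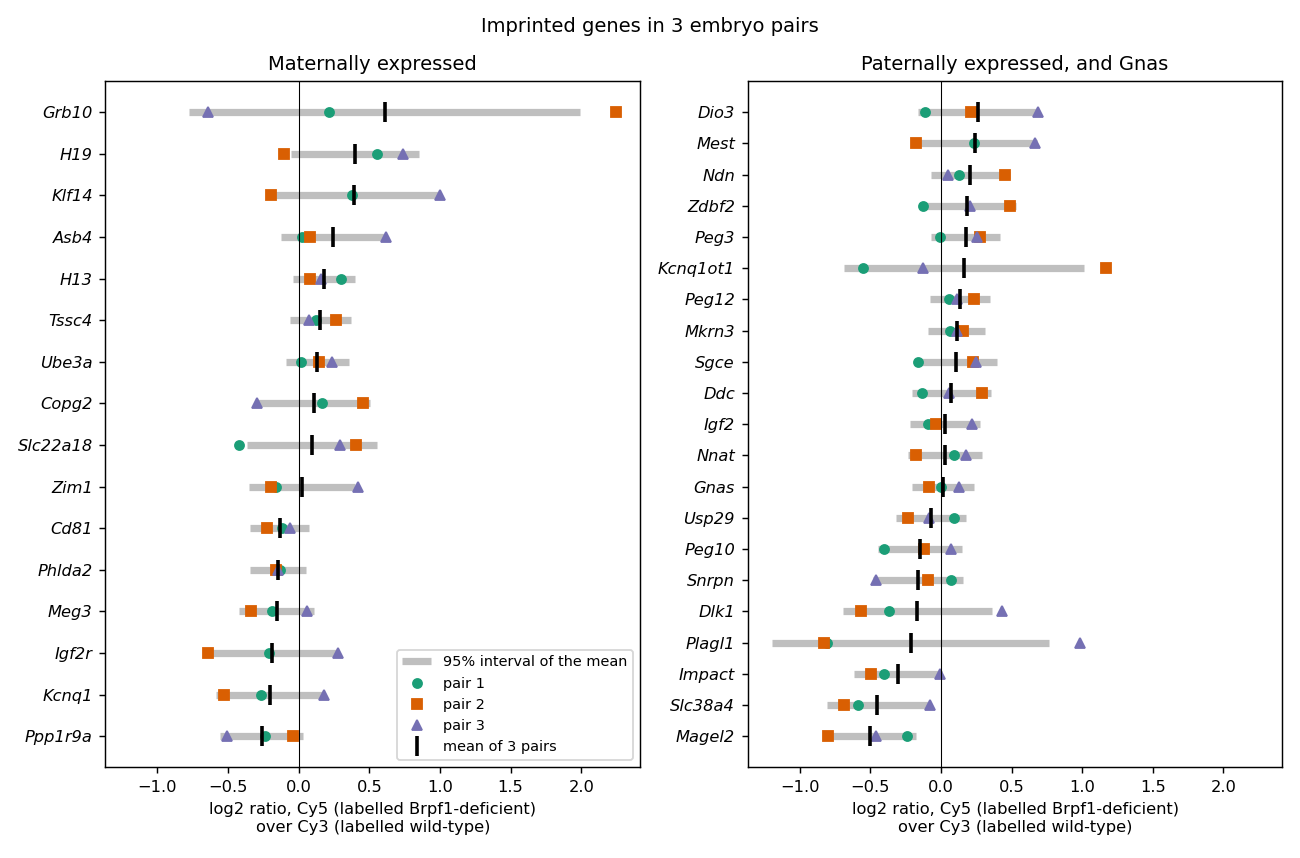
Log2 ratio of Cy5 (labelled Brpf1-deficient) over Cy3 (labelled wild-type) for the 37 imprinted genes tested, maternally expressed genes on the left and paternally expressed genes with Gnas on the right. Coloured points are pairs 1, 2 and 3, black ticks their mean and grey bars the 95% interval of the mean in limma. Only the bars of Magel2 and Slc38a4 lie wholly on one side of 0, and those of Grb10 and Plagl1 are the widest.

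The members with the smallest unadjusted p were Magel2 and Slc38a4. Magel2, of the Prader-Willi region, encodes a MAGE family protein of ubiquitin ligase complexes that act in endosomal protein sorting. Its raw intensity was 3352, 1938 and 2062 in Cy5 and 2340, 3012 and 1780.5 in Cy3, and the normalized log2 ratio gave -0.24, -0.80 and -0.46 over the pairs. All 3 pairs were below 0, with a mean of -0.50 ± 0.13 (SE, n = 3; limma adjusted p = 0.185). The authors' deposited table, turned to Cy5 over Cy3, lists -0.51 (adjusted p = 0.448).

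Slc38a4 encodes an amino acid transporter that is imprinted in mouse and known from placenta and liver. The 3 pairs gave log2 ratios of -0.59, -0.68 and -0.08, and their mean was -0.45 ± 0.14 (SE, n = 3; limma adjusted p = 0.229). Raw intensities were 35734, 21962 and 34502 in Cy5 and 24944, 26897 and 19410 in Cy3. Pair 3 lay near 0 and the other pairs well below it, and without pair 3 the mean was -0.63. The authors' deposited table, turned in the same way, lists -0.47 for its probe.

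The promoters of these and of the members Plagl1 and Peg3, whose values follow, show how different the starts of imprinted genes are in CpG content. Windows are 300 bases long, most of them upstream of the start (RefSeq, GRCm38.p6), 5′ to 3′ on the gene's strand, and capitals mark CpG dinucleotides, the sites at which DNA methylation is set. Magel2 (chr7:62376729-62377028, plus strand) has 10 CpG and Slc38a4 (chr15:97055907-97056206, minus strand, the first of 3 listed starts) has 5. Plagl1 (chr10:13090582-13090881, plus strand) has 26 and Peg3 (chr7:6730370-6730669, minus strand) has 13.
Magel2 promoter: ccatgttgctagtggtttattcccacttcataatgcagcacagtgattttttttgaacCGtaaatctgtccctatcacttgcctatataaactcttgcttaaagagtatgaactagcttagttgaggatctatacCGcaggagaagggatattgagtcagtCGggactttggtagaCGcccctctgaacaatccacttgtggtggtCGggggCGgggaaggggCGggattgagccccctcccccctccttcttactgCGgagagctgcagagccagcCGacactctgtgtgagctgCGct
Slc38a4 promoter: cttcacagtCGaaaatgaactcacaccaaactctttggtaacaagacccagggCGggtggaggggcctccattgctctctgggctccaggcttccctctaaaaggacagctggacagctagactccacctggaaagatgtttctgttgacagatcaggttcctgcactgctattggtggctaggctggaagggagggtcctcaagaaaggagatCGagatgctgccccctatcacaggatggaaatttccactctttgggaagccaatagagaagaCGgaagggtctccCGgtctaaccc
Plagl1 promoter: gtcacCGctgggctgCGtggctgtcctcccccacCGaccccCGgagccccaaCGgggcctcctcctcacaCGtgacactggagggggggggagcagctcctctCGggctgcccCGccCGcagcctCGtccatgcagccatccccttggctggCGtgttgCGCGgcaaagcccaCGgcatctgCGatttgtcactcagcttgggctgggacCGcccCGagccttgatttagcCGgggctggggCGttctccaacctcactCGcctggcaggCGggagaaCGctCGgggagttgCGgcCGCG
Peg3 promoter: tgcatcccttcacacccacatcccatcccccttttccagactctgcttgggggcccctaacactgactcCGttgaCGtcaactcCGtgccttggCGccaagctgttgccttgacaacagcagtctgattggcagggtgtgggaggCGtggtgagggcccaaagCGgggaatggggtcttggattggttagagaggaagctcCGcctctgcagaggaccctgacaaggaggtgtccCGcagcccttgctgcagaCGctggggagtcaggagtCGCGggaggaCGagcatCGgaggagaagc

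The Peg3 window overlaps that of Usp29 over 263 bases, since both start from opposite strands of the same promoter. Of 32851 windows of all genes, 11.6% hold TGCCGC on either strand, the core that ZFP57 is known to bind when methylated, and 11 of 51 windows of 32 members do (21.6%). Among the windows printed, that of Plagl1 holds it and the others do not. The median CpG count was 14 over the members' windows and 7 over all windows. Several windows of a gene can overlap, a match does not show a bound site, and methylation was not measured in these samples.

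Igf2 and its partners in growth control lay near 0 or differed between the pairs. Igf2, the paternally expressed fetal growth factor, had raw intensities of 20236.5, 15927 and 19470 in Cy5 and 11186, 13492 and 9614 in Cy3. Its log2 ratio was -0.09, -0.04 and 0.22, averaging 0.03 ± 0.10 (SE, n = 3) and a 95% interval from -0.22 to 0.28. All 3 pairs lay close to 0. Igf2r, the maternally expressed receptor that clears IGF2, had -0.21, -0.64 and 0.28 in pairs 1, 2 and 3, so pair 3 lay on the other side of 0 from the others.

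H19, the maternally expressed long RNA next to Igf2, had the brightest probe of all members. Raw intensities were 363876, 240697 and 314125 in Cy5 and 85220.5, 135942 and 78559.5 in Cy3, and no H19 spot was saturated. In pairs 1, 2 and 3 the log2 ratio was 0.55, -0.10 and 0.74, averaging 0.40 ± 0.18 (SE, n = 3; limma adjusted p = 0.333). Pairs 1 and 3 were high and pair 2 was not. Its mean log2 intensity was above 17, where the median ratio of all 523 genes was 0.87, 0.69 and 0.70 in pairs 1, 2 and 3 and where 268 of all 314 calls lie. When loess followed intensity more closely (span 0.02), H19 had -0.44, and with the scanner software's processed signals -0.22, so its direction depends on the scaling.

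A further 5 bright probes are listed under the name H19 without an accession, and they are no members by the rule. They gave means between -0.32 and 0.06, and in all 5 pair 2 was the lowest, at -0.89 to -0.44, and pair 3 the highest, at 0.10 to 0.77. The order of the pairs was thus the same in all 6 probes of the name, while the level of the ratio was not.

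Grb10, a maternally expressed adaptor protein that restrains growth signalling by the insulin and IGF1 receptors, had the widest spread. In log2 ratio it had 0.22, 2.25 and -0.64 over pairs 1, 2 and 3, from raw intensities of 865, 3168 and 909.5 in Cy5 and 440, 560 and 916 in Cy3. Its mean of 0.61 ± 0.54 (moderated SE, n = 3, which understates the spread of these pairs) rests on pair 2 and was -0.21 without it. Ddc, its paternally expressed neighbour (in heart), which encodes the decarboxylase of dopamine and serotonin synthesis, had -0.13, 0.29 and 0.06.

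Around Kcnq1, the long RNA Kcnq1ot1 is read from the paternal copy and silences its neighbours there. Kcnq1ot1 had -0.55, 1.17 and -0.13 at its brightest probe (mean 0.16 ± 0.33, SE, n = 3), while a dimmer probe gave -0.91, -0.07 and -0.63. The pairs spread widely at both probes, and the probe means had opposite signs. Among the maternally expressed neighbours, the placental growth regulator Phlda2 was the most even of all members, with -0.13, -0.16 and -0.15 (limma adjusted p = 0.384). Cd81, a tetraspanin, also lay below 0 in all pairs (-0.12, -0.22 and -0.06). Both had a mean above 0 with median centring in place of loess, Phlda2 at 0.062 and Cd81 at 0.13. Tssc4 lay above 0 in all pairs (0.12, 0.26 and 0.07), and the transporter Slc22a18 (-0.42, 0.40 and 0.29) and the potassium channel Kcnq1 itself (-0.26, -0.53 and 0.18) were on both sides. The 6 genes of the domain had a median of -0.02.

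Of the Dlk1-Dio3 domain, the paternally expressed Dlk1, a Notch ligand-like protein that holds back differentiation, had -0.37, -0.56 and 0.43 in pairs 1, 2 and 3. A second Dlk1 probe gave -0.03, -0.36 and 0.50, with the same order of the pairs. The maternally expressed long RNA Meg3 had -0.19, -0.33 and 0.06, and the thyroid hormone deiodinase Dio3, read mainly from the paternal copy, had -0.12, 0.22 and 0.69. In each of these 3 genes pair 3 was the highest, and no mean was farther from 0 than that of Dio3 (0.26 ± 0.16, SE, n = 3; limma adjusted p = 0.452). Rtl1, a retrotransposon-derived gene of this domain, was not well above background in either channel on any array, with 134, 143 and 139 in Cy5 and 85, 89 and 77 in Cy3.

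Plagl1, a paternally expressed zinc finger factor (also called Zac1) that is known to regulate other imprinted genes, changed sign between the pairs. Raw intensities were 93754.5, 87404 and 144185 in Cy5 and 64924, 93162.5 and 34044.5 in Cy3, and log2 ratios were -0.80, -0.83 and 0.98. Pair 3 had the highest Cy5 and the lowest Cy3 intensity. A second bright probe gave -0.86, -0.81 and 1.00, so both measured the same. The mean was -0.22 ± 0.38 (SE, n = 3; limma adjusted p = 0.797), and -0.81 without pair 3. The other 2 Plagl1 probes, both much dimmer, lay between 0.11 and 0.26 in every pair.

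Mest, a paternally expressed alpha/beta hydrolase-fold gene tied to mesoderm and growth, had 0.23, -0.17 and 0.67 in pairs 1, 2 and 3 (mean 0.24 ± 0.17, SE, n = 3). It is bright as well, and its mean was -0.19 with a loess span of 0.02. The maternally expressed neighbours were Copg2, a coat protein subunit (0.16, 0.45 and -0.30), and the zinc finger gene Klf14 (0.38, -0.20 and 1.00). Klf14 shared the order of the pairs with the brightest Mest probe, and Copg2 did not. Further Mest probes had other orders, 1 with 0.16, 0.22 and 0.40 and another with 0.0064, 1.62 and -0.62.

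Peg3, a paternally expressed zinc finger gene with a part in growth and maternal behaviour, had -0.0043, 0.28 and 0.25 at its bright probe. Usp29, a ubiquitin protease read from the other strand of the same promoter, had 0.10, -0.23 and -0.08, and the maternally expressed Zim1 had -0.16, -0.20 and 0.42. None of the 3 had the same sign in all pairs. In the Peg10 domain, Peg10, a retrotransposon-derived gene that the placenta needs, had -0.40, -0.12 and 0.07 and its paternally expressed neighbour Sgce, epsilon-sarcoglycan, -0.16, 0.23 and 0.25. The maternally expressed genes there had opposite signs at their brightest probes, in all pairs for each. Asb4, a ubiquitin ligase adaptor of vessel and placenta development, had 0.02, 0.08 and 0.62, and Ppp1r9a, the actin-binding neurabin, had -0.24, -0.04 and -0.51. At second probes this did not hold: that of Asb4 had 0.45, 2.45 and -0.32, and that of Ppp1r9a -0.02, 0.06 and 0.24.

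Of the Prader-Willi region, 5 of 6 genes had the same sign in all pairs at their brightest probes, as 43.2% of all genes did. Apart from Magel2 the means lay between -0.16 and 0.21. Among the paternally expressed genes, Ndn, a MAGE family protein of neurons, had 0.13, 0.45 and 0.05. Peg12 had 0.06, 0.23 and 0.12, and a second, dimmer Peg12 probe had 0.07, 1.30 and -0.43. The ring finger gene Mkrn3 had 0.07, 0.15 and 0.11 (its mean was -0.019 with median centring). The maternally expressed ubiquitin ligase gene Ube3a, imprinted in neurons, had 0.02, 0.14 and 0.24. The splicing protein gene Snrpn had 0.07, -0.09 and -0.46 and was the gene with mixed signs. Magel2 was thus below 0 in every pair while its neighbour Ndn was above 0 in every pair, as was Mkrn3 at its brightest probe, a second Mkrn3 probe having 0.05, -0.12 and -0.0064. None of these differences passed the threshold.

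The remaining members lay between -0.30 and 0.19 in the mean. Impact, a translation regulator, had -0.41, -0.50 and -0.01 (mean -0.30 ± 0.12, SE, n = 3; limma adjusted p = 0.296). H13, a signal peptide peptidase, had 0.30, 0.08 and 0.16 at its brightest probe, and a probe of another H13 transcript had -0.23, -0.55 and -0.43, so the direction depends on the probe. Zdbf2 had -0.13, 0.49 and 0.20 and Nnat, the membrane protein neuronatin, 0.09, -0.18 and 0.17. Rasgrf1, an exchange factor for Ras, had 2 probes and was well above background on at most 1 array in Cy3 and on none in Cy5.

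Gnas, the locus of the stimulatory G protein alpha subunit with transcripts from either parental copy, had 3 probes that passed the filter. The brightest had -0.0025, -0.09 and 0.13 and a mean of 0.01 ± 0.09 (SE, n = 3). One dimmer probe lay below 0 in all pairs (-0.50, -0.17 and -0.47) and the other above 0 in all (0.34, 0.30 and 0.22), with adjusted p-values of 0.227 and 0.234 when limma was run over every probe. Like H19 and Mest, the bright probe moved with the scaling, to -0.42 with a loess span of 0.02 and -0.48 with processed signals.

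The maternally and paternally expressed members did not separate. The median log2 ratio over the 16 maternally expressed members was 0.10 and that over the 20 paternally expressed members tested was 0.052, beside -0.02 over all genes. In pairs 1, 2 and 3 the maternal medians were -0.05, -0.07 and 0.17, and the paternal medians were -0.12, -0.06 and 0.11. The maternal median minus the paternal was 0.07, -0.0061 and 0.055 in the 3 pairs, smaller than the shift of either median between pairs 2 and 3. This difference was not tested. Above 0 in the mean were 10 of 16 maternally and 12 of 20 paternally expressed members.

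**Figure D2:**
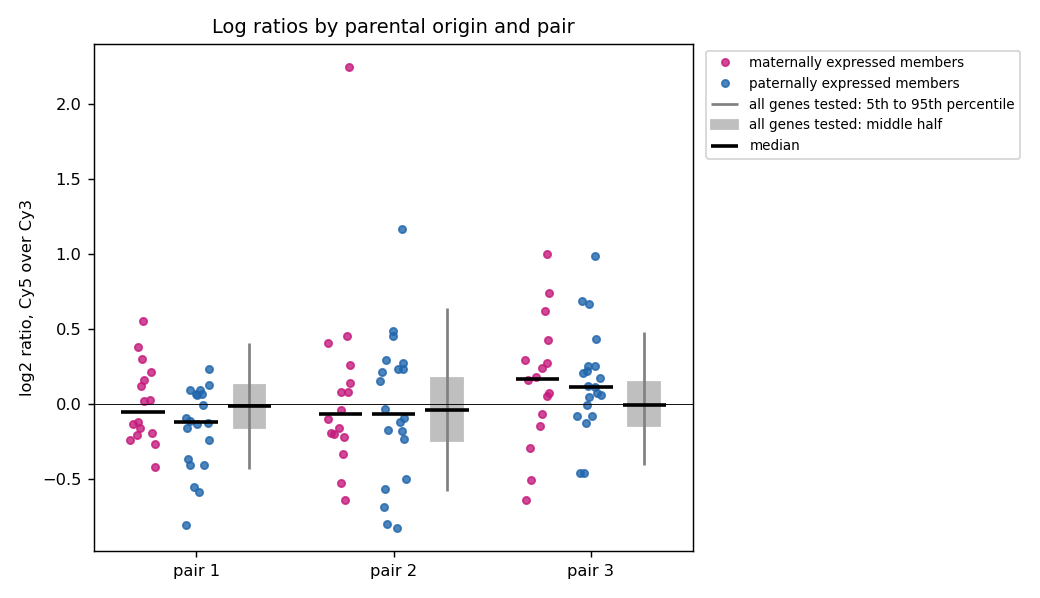
Log2 ratio of Cy5 over Cy3 in each pair for the 16 maternally expressed and 20 paternally expressed members (points, median as a black line) and for all 22781 genes tested (box and line by percentile, as the legend gives). The ranges of the members of either origin overlap in every pair, and both medians are higher in pair 3 (0.17 and 0.11) than in pairs 1 and 2.

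More visible than parental origin was a difference between the pairs. In 11 of 37 members the ratio of pair 3 lay at least 0.5 above the mean of pairs 1 and 2, where 5.36% of all genes did, and in 2 members, Grb10 and Copg2, it lay at least 0.5 below, where 4.1% of all genes did. The 11 were Plagl1, Klf14, Dlk1, Igf2r, Mest, Dio3, Zim1, Kcnq1, Asb4, Slc38a4 and H19, of which 6 are maternally and 5 paternally expressed. This count was chosen after the values were seen and is a description without a test. It was between 10 and 13 under the other settings of background, normalization and filter, where 3.69% to 11.4% of all genes did. All these counts use the brightest probe, and other choices of probe were not counted. The further probe of Asb4 (0.45, 2.45 and -0.32) and 1 of Mest (0.0064, 1.62 and -0.62) were lowest in pair 3. Those of Dlk1 and Zim1 and 1 of Plagl1 were highest there, while another of Mest (0.16, 0.22 and 0.40) and the dim Plagl1 probes differed little between pairs. Below 0 in pairs 1 and 2 and above 0 in pair 3 were 9 members (12.8% of all genes), and the opposite held for 2 (9.01% of all genes). The range over the pairs was above 1 in 4 members, namely Grb10, Plagl1, Kcnq1ot1 and Klf14, against 4.92% of all genes. Across the 37 members the ratios of pairs 2 and 3 correlated at -0.32 and those of pairs 1 and 2 at 0.30, where all genes gave 0.15 and 0.41. The genes share the arrays, and each group holds 3 RNAs.

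Most genes listed as markers of decidua and uterus moved with the same pair. Of 13 measured genes of the decidua and uterus list, 10 lay at least 0.5 higher in pair 3 than in pairs 1 and 2. The count was 5 of 8 where probes had to be well above background in both channels on all arrays. Without a filter on dim probes it was 12 of 15. The list's median was -0.35, -0.28 and 0.43 in pairs 1, 2 and 3, and its summed raw intensity was 48413 to 107619 in Cy5 and 39128 to 72145 in Cy3. Some of these 13 were dim, and Esr1 was well above background on 1 array in Cy5 and on 2 in Cy3. Gzmd and Gzmf of the list did not pass the filter. Prl8a2, a decidual prolactin, had -0.74, -3.55 and 0.60, and the uterine natural killer cell granzyme Gzme had -0.58, 0.20 and 2.61. In pair 3 the raw Cy3 intensity of Gzme was 83, where the array's median Cy3 background was 58. Of the trophoblast list, 12 of 17 markers were measured, with medians of 0.13, -0.15 and 0.28. Of these, 4 lay at least 0.5 higher in pair 3 than in pairs 1 and 2, and 2 at least 0.5 lower (Gcm1 and Cdx2). The part of maternal or trophoblast tissue in the members' ratios was not tested. Markers of visceral endoderm and yolk sac, tissues in which some imprinted genes are also expressed, lay above 0. All 20 were measured and had a mean above 0, with medians of 0.19, 0.49 and 0.51 in pairs 1, 2 and 3, and 1 was called, Apoc2 (mean 1.16; limma adjusted p = 0.0292). Their summed raw intensity was 1261860 to 2190250 in Cy5 and 529692 to 660432 in Cy3. Of the primitive erythroid list 9 of 10 were measured, with medians of -0.47, 0.76 and 0.14 and with 1, 9 and 5 markers above 0 in pairs 1, 2 and 3. Of these 1 was called, the embryonic globin gene Hbb-bh1 (mean 1.28, limma adjusted p = 0.0415), while another embryonic globin gene, Hbb-y, had -1.62, 1.08 and 1.83. Both globin genes had a mean log2 intensity above 17, where the median ratio of all genes was 0.87, 0.69 and 0.70 in pairs 1, 2 and 3. Of the 10 heart markers 7 had a mean below 0 and 3 above it, with medians of -0.45, -0.33 and -0.11 in pairs 1, 2 and 3. Among the 10, 3 were called lower in Cy5, namely Myh6 (-0.70), Ryr2 (-0.64) and Ttn (-0.62). These 5 calls, like all 314, were lost with a loess span of 0.02 and with processed signals, under which 0 genes passed. Of the 10 neural and 10 mesoderm markers none was called in limma, with 0 and 1 at an unadjusted p below 0.05. The part of these tissues in the members' ratios was not tested either. In bulk RNA, fewer cells of a type and less RNA per cell cannot be told apart.

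**Figure D3:**
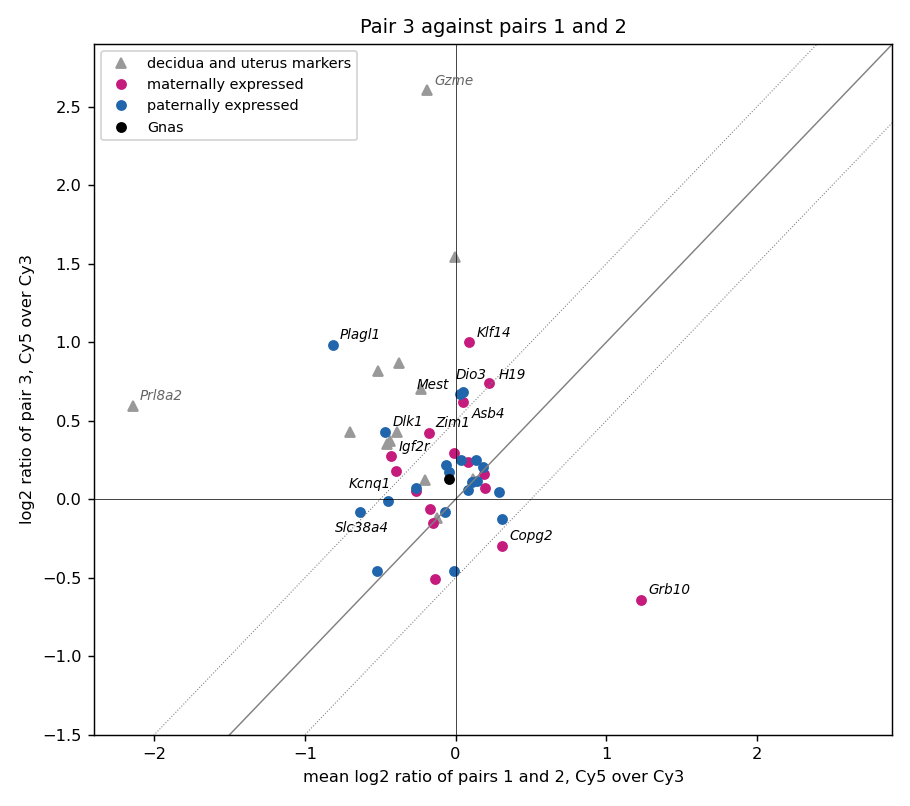
Log2 ratio of pair 3 (vertical) against the mean of pairs 1 and 2 (horizontal), Cy5 over Cy3, for the 37 members by parental origin and for the 13 measured decidua and uterus markers. The solid line marks equal values and the dotted lines a difference of 0.5. The 11 named members above the upper dotted line include genes of either origin, and 10 of the 13 markers lie above it too.

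Probes of the same member could disagree, in the loess-normalized data most of all in pair 2. For 18 members with several probes that passed the filter, 25 further probes could be set against the brightest one of their gene. They differed from it by over 1 on the log2 scale in 1, 8 and 1 of 25 cases in pairs 1, 2 and 3. Over all named genes with several probes this held for 0.674%, 9.12% and 0.603% of 5638 further probes, so pair 2 stood apart there as well. In 7 of the 8 cases the further probe was higher. With median centring in place of loess the counts were 1, 6 and 6 of 25, so that pair 2 did not stand apart from pair 3.

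The 8 probes belong to 7 members. In pair 2 the further probe of Asb4 was 2.38 above the brightest, that of Peg3 1.86, that of Impact 1.83, 1 of Mest 1.79 and that of Peg12 1.07. In pair 3 the same 5 probes differed by -1.29 to -0.55 from the brightest. Of Plagl1 both dim probes were more than 1 above the bright one in pair 2, and the further probe of Kcnq1ot1 differed by -1.23. Grb10, whose pair 2 also stood out at 2.25 with pair 3 below 0, has 1 probe and could not be checked in this way. Of the 18 members, 12 had probe means on both sides of 0.

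**Figure D4:**
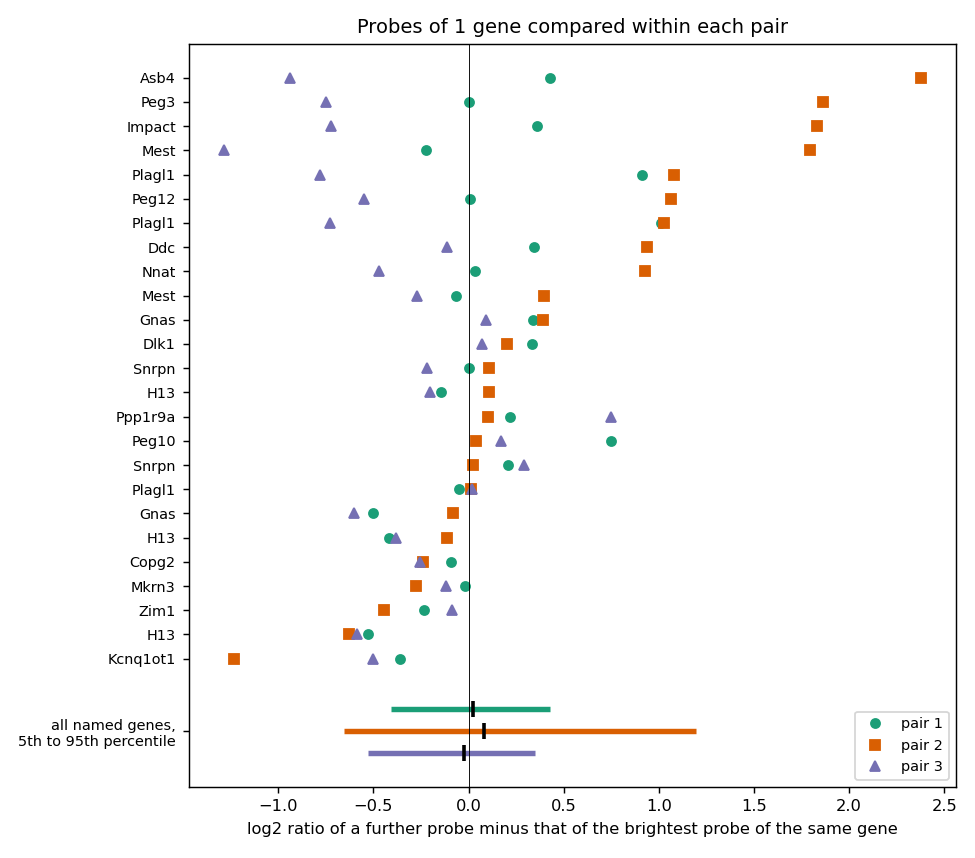
Log2 ratio of each further probe minus that of the brightest probe of the same gene, in pairs 1, 2 and 3, for the 25 further probes of 18 members, ordered by pair 2. The lines at the bottom give the 5th to 95th percentile and the ticks the median over 5638 further probes of all named genes. In pair 2 the probes at the top lie 1.03 to 2.38 above the brightest probe of their gene.

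Other genes of the same biology gave no call either. Of 48 further genes reported as imprinted in mouse, 42 were measured, 0 passed in limma, 7 had an unadjusted p below 0.05 (16.7%, against 17.2% of all genes) and the median was -0.0086. The smallest p-values belonged to Art5 (-0.46 ± 0.09, SE, n = 3; limma adjusted p = 0.127), the chloride channel Ano1 (-0.45 ± 0.10), the Polycomb-related gene Sfmbt2, paternally expressed in trophoblast (0.34 ± 0.09), and the lipid transfer gene Osbpl5 (-0.41 ± 0.12). Each of these had the same sign in all pairs, which the choice by smallest p favours.

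Of 28 genes that set, read or erase DNA methylation or protect imprints, 25 were measured and 0 passed in limma, with 5 at an unadjusted p below 0.05, all of them lower in Cy5 (20%, against 17.2% of all genes in either direction and 9.01% lower). In all, 20 of the 25 were below 0 and 5 above it, where 45.3% of all genes were above it, with medians of -0.09, -0.23 and -0.08 in pairs 1, 2 and 3. The chromatin remodeller Atrx had -0.39 ± 0.09 (SE, n = 3; limma adjusted p = 0.167), the methylcytosine dioxygenase Tet2 -0.45 ± 0.14, the methyltransferase Dnmt3a -0.33 ± 0.12 and the histone methyltransferase Setdb1 -0.22 ± 0.08. The maintenance methyltransferase Dnmt1 had -0.24 ± 0.09.

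All 20 genes of the IGF pathway list were measured. None passed in limma, and 7 had an unadjusted p below 0.05, 2 of them higher and 5 lower in Cy5 (35% in all, against 17.2% of all genes). The binding protein genes Igfbp1 (0.57, 0.80 and 1.15 in pairs 1, 2 and 3; limma adjusted p = 0.07) and Igfbp5 (-0.73, -0.84 and -0.38; limma adjusted p = 0.101) had the smallest p-values and opposite signs, each in every pair. The receptor gene Igf1r had -0.30 ± 0.08 (SE, n = 3) and Pappa, a protease that cleaves IGF binding proteins, -0.37 ± 0.10. These genes were picked by their small p-values, which favours 1 sign over the pairs. That they lay farther from 0, relative to their spread, than Igf2 and Igf2r follows from this choice.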

How the data were processed

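Expression was measured on 3 Agilent arrays with 2 colours, after amplification of 350 ng of total RNA per the labels' protocols. The intensity values are median brightness per spot and local background on a linear scale, as the scanner software (Feature Extraction 10.7.3.1, per the file headers) deposited them with the arrays, beside processed signals and a log10 ratio made from them. For 40000 probes the authors' deposited table holds log2 ratios, p-values and 2 scores, a moderated t and a log odds value. Limma is named, without settings, in the submitters' processing notes, and the table's direction is not stated. It correlated at -0.802 with Cy5 over Cy3 computed here (39915 probes) and was turned accordingly.

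Background was corrected with normexp (offset 50), and ratios were normalized by loess (span 0.3), to which control spots and outlier spots did not contribute. A probe was kept where 1 channel had it well above background on 2 or more arrays (31603 of 55681), and the brightest probe stood for each gene. Names came from RefSeq accessions (27656 probes matched to 1 gene of the GRCm38.p6 table), otherwise from the authors' table. The mean ratio was tested against 0 with limma 3.58.1 (lmFit, eBayes) under R 4.3.3, and p-values were adjusted by Benjamini-Hochberg across 22781 genes. The test was checked on simulated data. Alternatives were background, starting signal, normalization, filter, probe choice, variance model and omission of each pair. The members, lists and alternatives were chosen with earlier results of these data known. All 39 members are named, and of each other list the called genes and up to 4 with the smallest p (Dnmt1 was added after its value was seen). The lists of tissue markers are given by counts and their called genes.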

Additional observations from a re-analysis of the deposited data

How the results depend on the processing

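No alternative called an imprinted gene: the count was 0 in all 13, with 2 to 7 members at an unadjusted p below 0.05. Over all genes 314 were called in limma, against 633 with median centring, 194 with the mean of probes and 0 with processed signals (3302 at an unadjusted p below 0.05), with a loess span of 0.02 (3357) and in the authors' deposited table (4106). With each pair left out in turn the count ranged from 0 to 0 (2064 to 3638 at an unadjusted p below 0.05). The cause was not tested. The maternal minus paternal median, 0.047, was -0.00478 with processed signals, -0.021 with a loess span of 0.02, -0.064 with the mean of probes, -0.017 over every probe, and ranged from -0.047 to 0.012 when 1 pair was left out. The authors' deposited table gives -0.13, but over other genes and probes: it lacks 4 of the 37 members and holds only a dimmer probe of 6 others, Plagl1, Kcnq1ot1 and Gnas among them. The sign of that difference is not settled. Sign changes beyond the spread between pairs were 3 with processed signals and 3 with a span of 0.02 (H19, Mest and Gnas in both), 3 with median centring (Phlda2, Cd81 and Mkrn3) and 1 with the mean of probes (H13). For Gnas the authors' deposited table, turned to Cy5 over Cy3, lists -0.39 at a dimmer probe that had -0.38 here. Other Gnas probes are listed there at 0.49 and 0.69, the latter at a probe that did not pass the filter here. The test is paired by design, since each ratio sets a Brpf1-deficient against a wild-type RNA on 1 array. This leaves 1 group of ratios and no further block to fit. The number of arrays limits what could be detected.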
